A study of Mus musculus with 17 samples.

Results

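The 7 genes described here belong to the Nodal branch of TGF-beta signalling: the ligands Nodal and Gdf3, the co-receptor Tdgf1, the secreted inhibitors Lefty1 and Lefty2, and the intracellular inhibitors Smad7 and Skil. They were chosen by name, and all 7 of the 20621 genes in the count table that carry these symbols were present and passed the filter on low counts. Nodal binds activin receptors together with a co-receptor of the Cripto family, which leads to phosphorylation of Smad2 and Smad3 and, with Smad4, to transcription of target genes. Several of those targets are inhibitors of the pathway itself, among them the Lefty genes, Smad7 and Skil, so that their transcripts are often used as a readout of signalling. In mouse embryonic stem cells the pathway is active in serum, and it is best known for maintaining the epiblast and inducing mesendoderm in the embryo.

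RNA-seq counts came from E14 mouse embryonic stem cells of genotype slow/slow (RNAPII-mut, named for a slowly elongating RNA polymerase II and called mutant from here on) and of genotype WT. Both were grown without feeders on gelatine in serum and LIF, and 2i, the MEK inhibitor PD0325901 at 1 uM with the GSK3 inhibitor CHIR99021 at 3 uM, was added for 0, 1, 2 or 7 days. There were 3 mutant libraries at day 1 and 2 in each of the 7 other groups, 17 in all. The labels give neither age nor passage, do not say how many mutant clones were used, and do not say that replicates were separate cultures, so p-values measure the spread between these libraries, and the mutation cannot be told apart from the line that carries it.

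Library totals lay between 47350441 and 56138844 counts. Stem cell markers (6 genes, among them Pou5f1, Sox2 and Nanog) summed to 4487 to 6776 CPM (read counts scaled to TMM-adjusted library size) in the mutant and 3268 to 6489 CPM in WT, and none was at 0. The 6 targets of MEK signalling on a fixed list together stood at 309.7 to 587 CPM in mutant libraries with 2i, against 1052 and 1114 CPM without it. In WT they stood at 407 to 674 CPM with 2i, against 1032 and 1154 CPM without it. Spry4, Dusp6 and Etv4 were lower in every library with 2i than in any without it. Etv5 and Egr1 overlapped in both genotypes, and Spry2 in WT. Etv5 had 421 and 340 CPM in the mutant at day 0 and 368 and 401 CPM at day 7. Egr1 reached 182 CPM in WT day 1 replicate 1, against 77.4 and 30.6 CPM in WT at day 0. The WT libraries differed among themselves. Stromal markers, 9 genes, summed to 568 and 982 CPM in WT replicate 1 of days 0 and 1 and to 150.0 CPM at day 2, against 6.06 to 23.1 CPM in the mutant, where 3 or 4 of the 9 were at 0 in each library. Acta2 and Tagln held most of these WT sums (327 and 508 CPM at day 1). Thy1 went the other way, at 4.96 CPM in WT day 0 replicate 1 and 23.3 CPM in replicate 2. Lum and Dcn were at 0.302 CPM or less in every library. Streak and mesoderm markers stood at 199 and 161 CPM in the first 2 of those libraries, against 12.4 to 56.2 CPM in the mutant. Trophoblast markers, 6 genes with several keratins among them, summed to 646, 1365 and 405 CPM in WT replicate 1 of days 0, 1 and 2, against 71.6 to 157 CPM in the mutant. Krt8, Krt18 and Krt19 held most of these WT sums (568, 559 and 140 CPM at day 1), while Elf5 was at 0.117 CPM or less in these WT libraries. As members of the stromal and trophoblast lists disagreed, those sums do not name a cell type. Primitive endoderm markers summed to 59.2 to 210.1 CPM in WT replicate 2, against 11.7 to 18.1 CPM in the mutant. Same-numbered WT libraries deviated together from their group means in 6 of 6 pairs of days (r = 0.236 to 0.744 across genes, which are not independent replicates). The 8 WT libraries therefore form 2 series, and a fit with the WT series as a block is given wherever it changed a call.

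The ligand genes moved little. Nodal (chromosome 10, 61417972 to 61425338, plus strand, mm10) stood at 101 and 93.6 CPM in mutant cells at day 0, at 108, 130.3 and 106 CPM at day 1, at 96.8 and 96.6 CPM at day 2 and at 149 and 145 CPM at day 7. In WT cells it stood at 99.0 and 92.4 CPM at day 0, 83.0 and 155 CPM at day 1, 69.4 and 92.3 CPM at day 2 and 112 and 82.3 CPM at day 7. Over all libraries the highest level was only 2.24 times the lowest. Both mutant libraries at day 7 lay above every WT library but one, that of replicate 2 at day 1. The log2 difference was 0.59 (SE 0.26, adjusted p = 0.146, edgeR) for mutant day 7 over mutant day 0 and 0.60 (SE 0.26, adjusted p = 0.495) for mutant over WT at day 7, and neither passed the test. In the mutant cells the call at day 7 was made when the fit held only the groups compared (adjusted p = 0.00452).

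Gdf3 (chromosome 6, 122605403 to 122610087, minus strand), a Nodal-related ligand that signals through the same receptors, had the narrowest range of the 7 genes, 1.78 times from lowest to highest. Mutant cells had 143 and 121 CPM at day 0, 167, 187 and 193 CPM at day 1, 134 and 157 CPM at day 2 and 163 and 168 CPM at day 7. WT cells had 109 and 111 CPM at day 0, 124 and 150.4 CPM at day 1, 130.0 and 128 CPM at day 2 and 171 and 136 CPM at day 7. Every library of day 1 or later in WT lay above both WT libraries of day 0. Averaged over genotypes, Gdf3 rose by day 7 by 0.40 on the log2 scale (SE 0.12, 1.32-fold, adjusted p = 0.0214, edgeR). The call was lost when any of 5 single libraries was left out (WT day 0 replicate 1, WT day 7 replicate 1, mutant day 0 replicate 2 or either mutant library of day 7, adjusted p up to 0.0920). Without WT replicate 1 of days 0 and 1, the libraries with the highest stromal sums, the difference was 0.40. That fit leaves 1 WT library at each of these days. With the WT series as a block, Gdf3 also passed at day 1 on average (log2 0.39, adjusted p = 0.0341), at day 7 in WT (log2 0.48, adjusted p = 0.0453) and for mutant over WT averaged over days (log2 0.24, adjusted p = 0.0487); without the block these had adjusted p = 0.0643, 0.0738 and 0.0736.

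Tdgf1 (Cripto, chromosome 9, 110939603 to 110946158, minus strand), the membrane-anchored co-receptor that Nodal needs for signalling, was the most abundant of the 7 per kilobase of exon, at a mean of 255 CPM per kb. Its mutant levels were 955 and 919 CPM at day 0, 401, 618 and 599.7 CPM at day 1, 429 and 585 CPM at day 2 and 838 and 662 CPM at day 7. Its WT levels were 624 and 947 CPM at day 0, 278 and 744 CPM at day 1, 347 and 841 CPM at day 2 and 763 and 799.9 CPM at day 7. All 5 mutant libraries of days 1 and 2 lay below both mutant libraries of day 0, while the WT libraries of days 1 and 2 overlapped those of day 0. On average the day 1 difference was -0.71 (log2, SE 0.30, adjusted p = 0.207, edgeR), or -0.76 with adjusted p = 0.0225 when the WT series was a block, and with that block the day 2 difference was -0.69 (adjusted p = 0.0295). A processed copy, Tdgf1-ps1, shares 86 of the 2715 windows of 100 bases in Tdgf1 transcripts (3.17%), so a small part of its reads may have been split or dropped.

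**Figure D1:**
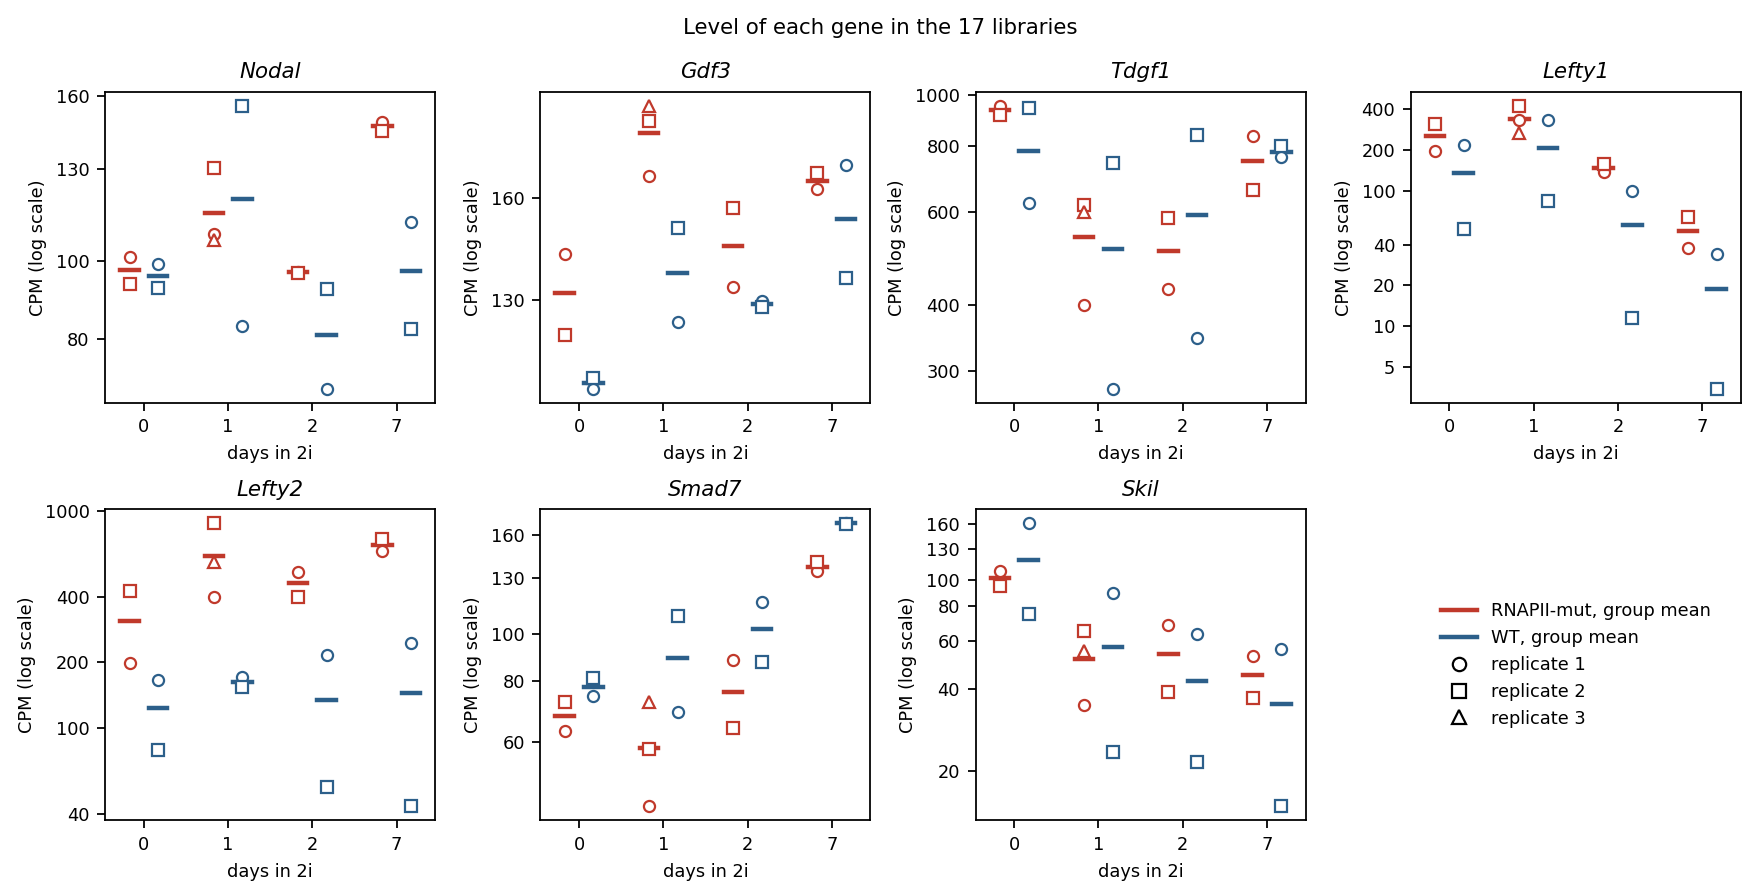
CPM (log axis) of the 7 genes against days in 2i, mutant libraries left of WT at each day, with a bar at the group mean and a symbol for each replicate. Lefty1 and Skil were lower at day 7 on average, Smad7 was higher at day 7, and the WT squares (replicate 2) lie below the WT circles for Lefty1, Lefty2 and Skil at every day.

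Lefty1 and Lefty2 encode secreted proteins that bind Nodal and its co-receptor and so block receptor assembly. They lie side by side on chromosome 1 on the plus strand, Lefty2 at 180893108 to 180899103 and Lefty1 at 180935022 to 180938400, with 35919 bp between them. Their coding sequences are both 1107 bases long and identical at 1017 positions (91.9%) with no gap. Whether reads can be assigned to one or the other depends on where they fall, so the stretch of 90 coding bases that differs most (coding bases 35 to 124, GENCODE M21 on mm10) is shown, with its 27 differing bases in capitals.
Lefty1: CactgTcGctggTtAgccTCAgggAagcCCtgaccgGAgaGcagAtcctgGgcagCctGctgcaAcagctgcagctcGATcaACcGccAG
Lefty2: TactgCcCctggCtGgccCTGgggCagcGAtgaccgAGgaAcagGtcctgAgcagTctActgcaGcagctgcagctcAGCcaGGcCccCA
A read from that stretch can be told apart. Elsewhere the longest run without a difference is 140 bases.
Over whole transcripts, 97 of 1657 windows of 100 bases in Lefty1 (5.85%) and 97 of 2510 in Lefty2 (3.87%) are shared. How the authors counted reads from such windows is not given in the sources used here, so a small part of either gene's counts is uncertain.

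Lefty1 fell in 2i, and its level also separated the WT series. Mutant cells had 195 and 309.6 CPM at day 0, 335, 423 and 265 CPM at day 1, 138 and 158 CPM at day 2 and 37.8 and 63.9 CPM at day 7. WT cells of replicate 1 had 218, 331, 100.0 and 34.2 CPM at days 0, 1, 2 and 7. WT cells of replicate 2 had 52.1, 84.5, 11.4 and 3.47 CPM at the same days. In the mutant and in each WT series the day 7 libraries were the lowest, and the highest level was that of a day 1 library. Averaged over genotypes, day 7 lay 5.97-fold below day 0 (log2 -2.58, SE 0.76, adjusted p = 0.0230, edgeR); in bulk RNA, fewer cells with a transcript and less RNA per cell cannot be told apart. Without WT replicate 1 of days 0 and 1 the difference was -1.89 with adjusted p = 0.0744. The call was also lost when WT day 0 replicate 1, WT day 7 replicate 2, mutant day 0 replicate 2 or either mutant library of day 7 was left out (adjusted p up to 0.0981, log2 between -1.89 and -3.80 over all single libraries left out). Within one genotype the day 7 difference was -2.31 in the mutant (SE 1.06, adjusted p = 0.171) and -2.85 in WT (SE 1.09, adjusted p = 0.101). With the WT series as a block these were -2.31 (SE 0.36, adjusted p = 0.000469) and -3.25 (adjusted p = 0.000128). The block does not enter mutant libraries, so the mutant estimate stayed the same. Its smaller SE came from the estimate of spread shared with WT, not from the mutant libraries. Under the block, WT day 2 over day 0 was -1.65 (adjusted p = 0.0124), and day 2 over day 0 on average was -1.21 (adjusted p = 0.00363). Day 2 over day 1 was -1.75 (adjusted p = 0.00557) and day 7 over day 2 was -1.57 (adjusted p = 0.00294), both on average.

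Between genotypes, Lefty1 overlapped at days 0 and 1, and the mutant libraries lay above both WT libraries at days 2 and 7. The averaged difference was 1.11 on the log2 scale (SE 0.50, 2.17-fold, adjusted p = 0.170, edgeR). WT replicate 1 exceeded WT replicate 2 by 3.92-fold to 9.86-fold, depending on the day, whereas mutant libraries of 1 day differed by at most 1.69-fold. Over the 4 days the geometric mean was 136 and 191 CPM in mutant replicates 1 and 2, against 125 CPM in WT replicate 1 and 20.4 CPM in WT replicate 2. The blocked fit called the averaged difference (log2 1.62, adjusted p = 5.80e-05), day 2 (2.10, adjusted p = 0.0279) and day 7 (2.16, adjusted p = 0.0129), but the block takes the gap between the WT series out of the error, and these p-values then concern these 2 series only.

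Lefty2 was higher in the mutant, and its mutant levels at day 7 lay above those at day 0, where Lefty1 lay below. The difference between these days did not pass for Lefty2. Its log2 value for day 7 over day 0 was 1.16 in the mutant (SE 0.73, adjusted p = 0.327, edgeR) and 0.23 in WT (SE 0.72, adjusted p = 0.858). On average it was 0.69 (SE 0.51, adjusted p = 0.349). Mutant cells had 198 and 425 CPM at day 0, 399, 874 and 582 CPM at day 1, 524 and 400.2 CPM at day 2 and 649 and 741 CPM at day 7. WT cells had 167 and 78.7 CPM at day 0, 172 and 154 CPM at day 1, 216 and 53.3 CPM at day 2 and 245 and 43.5 CPM at day 7. Of the 9 mutant libraries, 8 lay above every WT library, and the exception was mutant day 0 replicate 1; at each single day the genotypes did not overlap. Averaged over the 4 days, Lefty2 was 3.55-fold higher in the mutant (log2 1.83, SE 0.37, adjusted p = 0.00759, edgeR). The difference passed with each library left out in turn (log2 1.64 to 2.26, adjusted p at most 0.0242) and without WT replicate 1 of days 0 and 1 (log2 2.01, adjusted p = 0.0147).

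No single day passed for Lefty2: the log2 difference was 1.35 at day 0 (SE 0.73, adjusted p = 0.468), 1.92 at day 1 (SE 0.71, adjusted p = 0.232), 1.78 at day 2 (SE 0.74, adjusted p = 0.776) and 2.27 at day 7 (SE 0.76, adjusted p = 0.348). Leaving out WT replicate 2 or replicate 1 of the same day moved the day 2 difference to 1.10 or 3.12 and the day 7 difference to 1.51 or 4.002. With the WT series as a block, day 1 (1.79, adjusted p = 0.0461) and day 7 (2.66, adjusted p = 0.0227) passed. The geometric mean over the days was 405 and 576 CPM in mutant replicates 1 and 2, against 197 and 72.8 CPM in WT replicates 1 and 2. The mutant means leave out day 1 replicate 3 and join libraries not known to be linked, so their spread cannot be set against that of the WT series. With replicate numbers rather than libraries as units there would be 2 values in each genotype, too few for an exact permutation test to pass. WT replicate 1 exceeded replicate 2 by 1.11-fold to 5.63-fold. The stromal and primitive endoderm marker sums given above also differ between these WT series, and their part in the Lefty values was not tested.

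In the libraries of both genotypes the Lefty2 to Lefty1 ratio was higher at days 2 and 7 than at day 0. Neither genotype was tested alone. Per kilobase of exon, the ratio of Lefty2 to Lefty1 counts was 0.685 and 0.924 in mutant cells at day 0, 0.803, 1.39 and 1.48 at day 1, 2.55 and 1.70 at day 2 and 11.6 and 7.81 at day 7. In WT cells it was 0.514 and 1.02 at day 0, 0.350 and 1.23 at day 1, 1.45 and 3.14 at day 2 and 4.82 and 8.44 at day 7. All 4 libraries of day 7 lay above all others, and the genotypes overlapped at every day. This comparison was chosen after the values were seen. In exact two-sided permutation tests of log2 ratios over the libraries of both genotypes, day 7 lay 10.3-fold above day 0 (p = 0.0286, 0.0429 adjusted over 3 comparisons) and day 2 2.78-fold above (p = 0.0286, adjusted 0.0429). The p of 0.0286 is the smallest that 4 against 4 libraries allow, and all 4 libraries of either day lay above all 4 of day 0. Day 1 over day 0 had a log2 difference of 0.30 (exact permutation p = 0.556). The WT libraries of 1 series are not independent, which the test does not take into account.

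**Figure D2:**
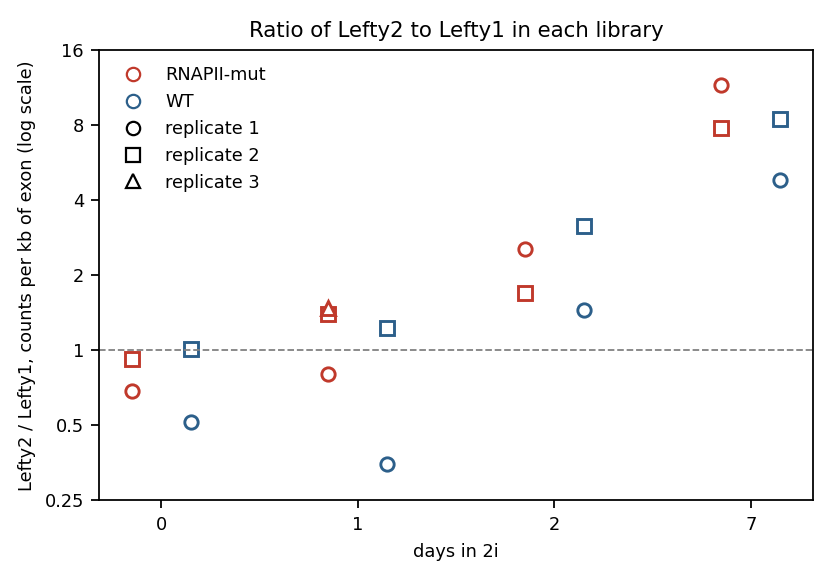
Ratio of Lefty2 to Lefty1 counts per kb of exon (log axis) in each library against days in 2i, mutant left of WT, with a symbol for each replicate and a dashed line at equal levels. At day 7 all 4 libraries lie between 4.82 and 11.6, and at day 0 between 0.514 and 1.02.

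Smad7 (chromosome 18, 75367529 to 75395935, plus strand), an inhibitory Smad that competes for the activated receptor and brings ubiquitin ligases to it, rose by day 7 in both genotypes. Mutant cells had 63.2 and 72.4 CPM at day 0, 44.2, 57.9 and 72.5 CPM at day 1, 88.2 and 63.9 CPM at day 2 and 134 and 140.5 CPM at day 7. WT cells had 74.4 and 81.0 CPM at day 0, 69.0 and 109 CPM at day 1, 117 and 87.7 CPM at day 2 and 169 CPM in both libraries at day 7. The libraries of day 7 lay above all others of either genotype. The rise was 2.03-fold in the mutant (log2 1.02, SE 0.26, adjusted p = 0.0217, edgeR) and 2.17-fold in WT (log2 1.12, SE 0.26, adjusted p = 0.0166). On average it was 2.10-fold (log2 1.07, SE 0.19, adjusted p = 0.00115), and this passed with each single library left out (log2 1.04 to 1.12, adjusted p at most 0.00867). Within a genotype the call was lost whenever a library of day 0 or 7 of that genotype was left out (adjusted p up to 0.160 in the mutant and 0.104 in WT).

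Smad7 at day 7 was 1.73 times its level at day 2 on average (log2 0.79, SE 0.19, adjusted p = 0.0609, or 0.0204 with the WT series as a block). At day 7 both mutant libraries lay below both WT libraries. Averaged over days the mutant had less Smad7 by a log2 difference of -0.38 (SE 0.13, adjusted p = 0.0680), or -0.38 with adjusted p = 0.0405 under the block and -0.47 with adjusted p = 0.0368 without WT replicate 1 of days 0 and 1. The geometric mean over the days was 75.8 and 78.3 CPM in mutant replicates 1 and 2, against 100.3 and 107 CPM in WT replicates 1 and 2. For Smad7 the WT series were thus close to each other, in contrast to the Lefty genes.

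Skil (SnoN, chromosome 3, 31095058 to 31122577, plus strand), a corepressor that binds Smad2, Smad3 and Smad4 on target genes and is degraded and then induced on signalling, fell in 2i. Mutant cells had 108 and 94.8 CPM at day 0, 34.7, 65.3 and 54.8 CPM at day 1, 68.2 and 38.9 CPM at day 2 and 52.5 and 37.0 CPM at day 7. WT cells of replicate 1 had 161, 89.97, 63.5 and 55.7 CPM at days 0, 1, 2 and 7. WT cells of replicate 2 had 75.2, 23.5, 21.6 and 14.9 CPM. In the mutant and in each WT series the day 0 libraries held the highest levels, and the mean of each genotype at day 1 was already near that at day 2. Averaged over genotypes, day 7 lay 2.75-fold below day 0 (log2 -1.46, SE 0.50, adjusted p = 0.0463, edgeR), close to the threshold. The call was lost in 11 of 17 fits that left out 1 library (adjusted p up to 0.157, log2 -1.13 to -2.08), and without WT replicate 1 of days 0 and 1 the difference was -1.14 (adjusted p = 0.0940).

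With the WT series as a block, Skil was lower at day 1 (log2 -1.12, adjusted p = 0.00390), day 2 (-1.26, adjusted p = 0.00142) and day 7 (-1.57, adjusted p = 0.000111) on average. The blocked day 7 difference was -1.18 in the mutant (adjusted p = 0.0145) and -1.95 in WT (adjusted p = 0.000906), and WT day 2 over day 0 was -1.59 (adjusted p = 0.00858). The mutant difference was also -1.18 without the block (SE 0.71, adjusted p = 0.298, edgeR), since the block does not enter mutant libraries. Without the block the average at day 2 was -1.20 (SE 0.50, adjusted p = 0.150) and WT day 7 over day 0 was -1.74 (SE 0.72, adjusted p = 0.125). WT replicate 1 exceeded WT replicate 2 by 2.14-fold to 3.82-fold, against at most 1.88-fold between mutant libraries of 1 day. The mutant libraries lay between the WT series at each day, except mutant day 2 replicate 1, which lay above both.

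**Figure D3:**
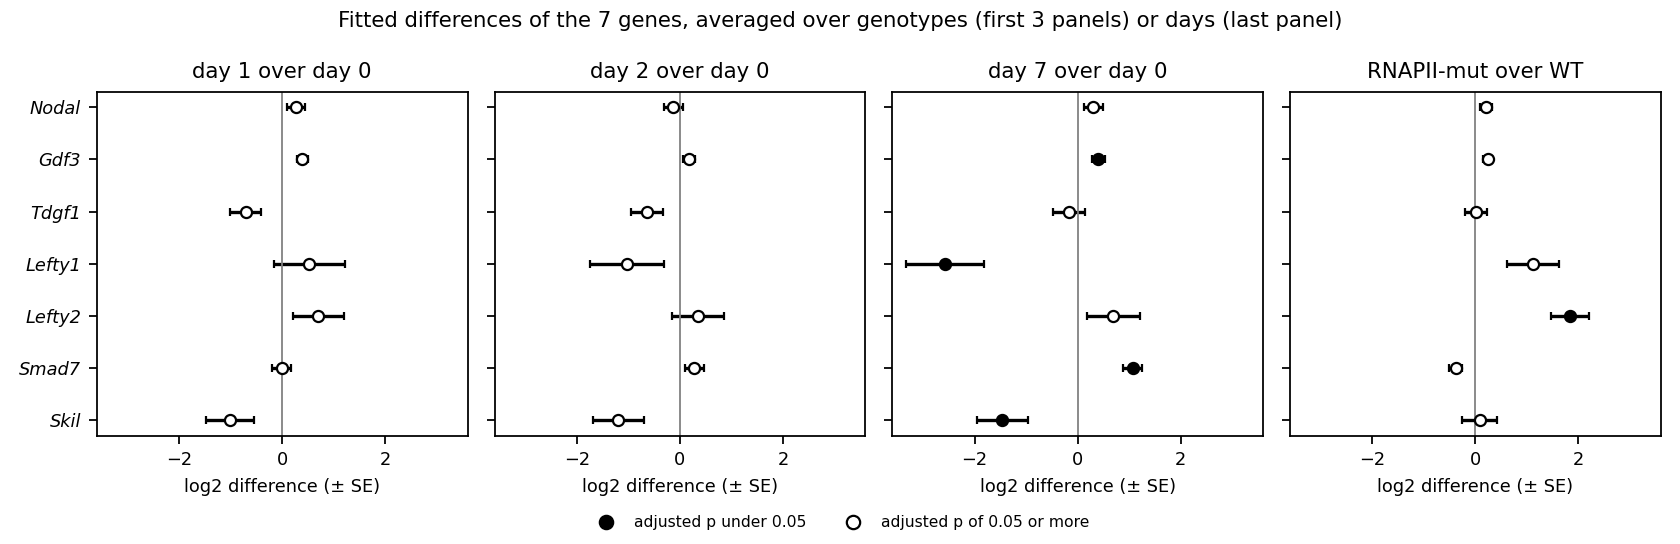
Fitted log2 differences (± SE) of the 7 genes, for days 1, 2 and 7 over day 0 averaged over genotypes and for mutant over WT averaged over days, with filled symbols past the test. Lefty1 and Skil lie left of 0 and Smad7 and Gdf3 right of it at day 7, and Lefty2 is the filled symbol between genotypes.

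Among the comparisons with day 0, the 7 genes had calls only at day 7, and the share of all tested genes called was also highest there. Averaged over genotypes, day 7 over day 0 called 4 of 7 (2 higher, 2 lower), with 27.3% of all 15365 tested genes called, and the median log2 difference was 0.31 over the 7 genes and 0.01 over all. Day 7 over day 0 called 1 of 7 in the mutant (background 14.2%) and 1 of 7 in WT (background 12.7%), Smad7 in both. Mutant over WT averaged over days called 1 of 7, Lefty2, against a background of 12.8%, with median log2 differences of 0.21 over the 7 and -0.03 over all.

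In all the remaining comparisons edgeR called 0 of the 7. For day 1 over day 0 the background was 1.41% in the mutant, 0.202% in WT and 4.86% on average, and 1, 0 and 2 of the 7 had an unadjusted p under 0.05. For day 2 over day 0 it was 2.92% in the mutant, 2.16% in WT and 10.7% on average, with 0, 0 and 1 such genes. Day 2 over day 1 on average had a background of 0.0651% and day 7 over day 2 one of 1.20%, with 2 such genes each. Mutant over WT had a background of 0.280% at day 0, 0.417% at day 1, 0.0716% at day 2 and 0.0976% at day 7, with 0, 3, 1 and 2 such genes. DESeq2 called 1 of the 7 at day 1 on average, Gdf3, and 1 for day 7 over day 2, Smad7, and 0 in the others. The test of whether the response to 2i differed between genotypes called 0 of 7 at days 1, 2 and 7 (0 with unadjusted p under 0.05, 0 by DESeq2, background 0%), with adjusted p of at least 0.675.

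With the WT series as a block more genes were called, and the background rose too. In the mutant the block left the differences almost as they were and lowered the error that both genotypes share. The blocked fit called 3 of 7 for mutant day 7 over day 0 (25.1% of all genes), 2 for WT day 2 over day 0 (9.69%) and 4 for WT day 7 over day 0 (26.1%). On average it called 3 at day 1 (12.5%), 3 at day 2 (21.1%), 1 for day 2 over day 1 (1.54%) and 2 for day 7 over day 2 (6.96%). For mutant over WT it called 1 at day 1 (4.52%), 1 at day 2 (0.273%), 2 at day 7 (1.24%) and 4 on average (22.0%).

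The order of the 8 groups by mean CPM differed from gene to gene. For Lefty2 the 4 mutant groups came first, and mutant day 0 and WT day 1, the neighbours at the boundary, were the only ones in that order whose libraries did not overlap. For Lefty1, mutant day 1 was highest (341 CPM) and WT day 7 lowest (18.8 CPM), and only WT day 7 and its neighbour, mutant day 7, did not overlap. For Smad7, WT day 7 (169 CPM) lay above mutant day 7 (137 CPM) and that above WT day 2 (102 CPM), each without overlap, while the groups below overlapped with their neighbours. For Skil, both day 0 groups came first, and the only gap was that below mutant day 0. For Tdgf1 no neighbours in the order were apart.

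Across the 17 libraries the 7 genes did not move as one. As a description over libraries that share group, series and day, Pearson's r of log2 CPM was 0.64 for Lefty1 with Lefty2, 0.67 for Lefty1 with Skil, 0.62 for Gdf3 with Lefty2 and -0.76 for Lefty1 with Smad7. Nodal, the ligand, had r = 0.08 with Lefty1 and 0.49 with Lefty2. Among all genes of at least 5 CPM on average, the pattern most like that of Skil was that of Qser1 (r = 0.97). Slc43a1 (0.94) was most like Lefty1, Cnep1r1 (0.92) most like Lefty2, Plekhg1 (0.93) most like Smad7, Aire (0.93) most like Tdgf1, Mphosph6 (0.86) most like Gdf3 and Btd (0.78) most like Nodal.

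The rest of the pathway was taken from lists of ligands and processing enzymes, receptors, transducers, inhibitors and targets, 39 genes besides the 7, of which 35 were tested. On average 12 of them passed at day 7 over day 0 (34.3%, against 27.3% of all genes), 8 higher and 4 lower, and the median log2 difference over the 35 was -0.04, against 0.01 over all genes. At day 1 on average 2 were higher and 1 lower (8.57%, against 4.86% of all genes), and at day 2 on average 3 were higher and 2 lower (14.3%, against 10.7%). Without WT replicate 1 of days 0 and 1, 8 passed at day 1 and 10 at day 2, with 886 and 1711 of all 15573 genes tested called.

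Among ligands and processing enzymes, both convertases that cleave the Nodal precursor were higher at day 7 on average. Pcsk6 averaged 219 ± 4.87 CPM in the mutant and 187 ± 14.4 CPM in WT at day 7, against 47.6 ± 0.498 CPM in the mutant and 79.8 ± 56.3 CPM in WT at day 0 (SD, n = 2 each; log2 1.72, adjusted p = 0.000888). Furin was higher by 0.94 (log2, adjusted p = 0.00570), with 1.40 in the mutant (adjusted p = 0.00872) and 0.48 in WT (adjusted p = 0.302). For Pcsk6 the values were 2.20 in the mutant (adjusted p = 0.00395) and 1.23 in WT (adjusted p = 0.0624). The difference between the genotypes in this response passed for neither (adjusted p = 0.647 for Furin and 0.669 for Pcsk6). Inhbb, which encodes a subunit of activin B, was lower (log2 -3.20, adjusted p = 0.0120), at 11.6 ± 3.17 CPM in the mutant and 2.23 ± 1.80 CPM in WT at day 7, against 40.5 ± 8.30 CPM in the mutant and 53.8 ± 68.8 CPM in WT at day 0 (SD, n = 2 each). The WT libraries of day 0 thus differed widely for this gene.

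Of 6 receptors tested, 2 were higher at day 7 and 0 lower (33.3%, against 27.3% of all genes). Acvr1b (ALK4), the type I receptor of Nodal, was higher by 0.76 (log2, adjusted p = 0.0349), and by 0.57 with adjusted p = 0.120 without WT replicate 1 of days 0 and 1. Tgfbr2, the type II receptor of TGF-beta itself, was higher by 2.31 (log2, adjusted p = 0.000682), with 3.56 in the mutant (adjusted p = 0.00136) and 1.06 in WT (adjusted p = 0.185). Of 5 transducers, Smad3, the receptor-activated effector, was higher by 1.46 (log2, adjusted p = 0.00632) and Foxh1, a DNA-binding partner of Smad2 and Smad3, lower (log2 -0.54, adjusted p = 0.0204). For Smad3 the values were 1.82 in the mutant (adjusted p = 0.0242) and 1.11 in WT (adjusted p = 0.138), and their difference did not pass (adjusted p = 0.720).

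Of the inhibitors, the secreted activin antagonist Fst was higher by 2.60 (log2, adjusted p = 0.00294), with 4.58 in the mutant (adjusted p = 0.00298) and 0.62 in WT (adjusted p = 0.581). For Tgfbr2 and Fst the difference between these responses did not pass (adjusted p = 0.539 and 0.465). The related Fstl3 was lower (log2 -1.62, adjusted p = 0.00307), at under 4 CPM in every library. Tgfbr3 (betaglycan), a membrane co-receptor that also presents inhibin, was higher by 2.40 (log2, adjusted p = 0.000189). The corepressor Tgif2 was lower (log2 -0.54, adjusted p = 0.0109), or -0.41 with adjusted p = 0.0557 without WT replicate 1 of days 0 and 1. Gsc, a homeobox target of Nodal in the organizer, was higher by 2.54 (log2, adjusted p = 0.00329), at no more than 7.34 CPM in any library. It was the 1 target called of 7 tested (14.3%, against 27.3% of all genes). For 3 other targets, named after their values were seen, the day 7 difference on average depended on WT replicate 1 of days 0 and 1. With all libraries T, the mesoderm regulator, had a log2 difference of 2.17 (adjusted p = 0.217), Cdx2 2.40 (adjusted p = 0.0548) and Eomes 0.48 (adjusted p = 0.520). Without that pair the differences were 6.22, 4.66 and 1.45, but only 1 WT library was then left at day 0. The day 0 libraries kept in that fit held very little T (0.203 CPM in WT, 0.522 and 0.255 CPM in the mutant). They also held little Cdx2 (0.304 CPM in WT, 0.803 and 0.730 CPM in the mutant), so these 2 log2 values are ratios to very low levels.

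Between genotypes, 4 of the 35 passed on average, all lower in the mutant (11.4%, against 12.8% of all genes). Fst was lower (log2 -1.79, adjusted p = 0.00688) and Tgfbr3 too (log2 -1.13, adjusted p = 0.00574). Tgfbr2 was lower (log2 -0.88, adjusted p = 0.0355) and Bambi, a pseudoreceptor, as well (log2 -0.40, adjusted p = 0.0318). The sign for Tgfbr2 was not the same at every day. Its log2 difference was -1.90 at day 0, -1.82 at day 1 and -0.42 at day 2, but 0.61 at day 7 (SE 0.50, adjusted p = 0.712). At day 0 Fst stood at 1.10 ± 0.359 CPM in the mutant and 17.5 ± 19.4 CPM in WT, and at day 7 at 26.4 ± 0.0279 CPM in the mutant and 26.9 ± 9.55 CPM in WT (SD, n = 2 each). WT replicate 1 of days 0 and 1 had the highest stromal and mesoderm marker sums. Without this pair, which leaves 1 WT library at each of these days, the averaged difference of Fst was -1.02. That of Tgfbr3 was -0.94, that of Bambi -0.41 and that of Tgfbr2 -0.50.

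**Figure D4:**
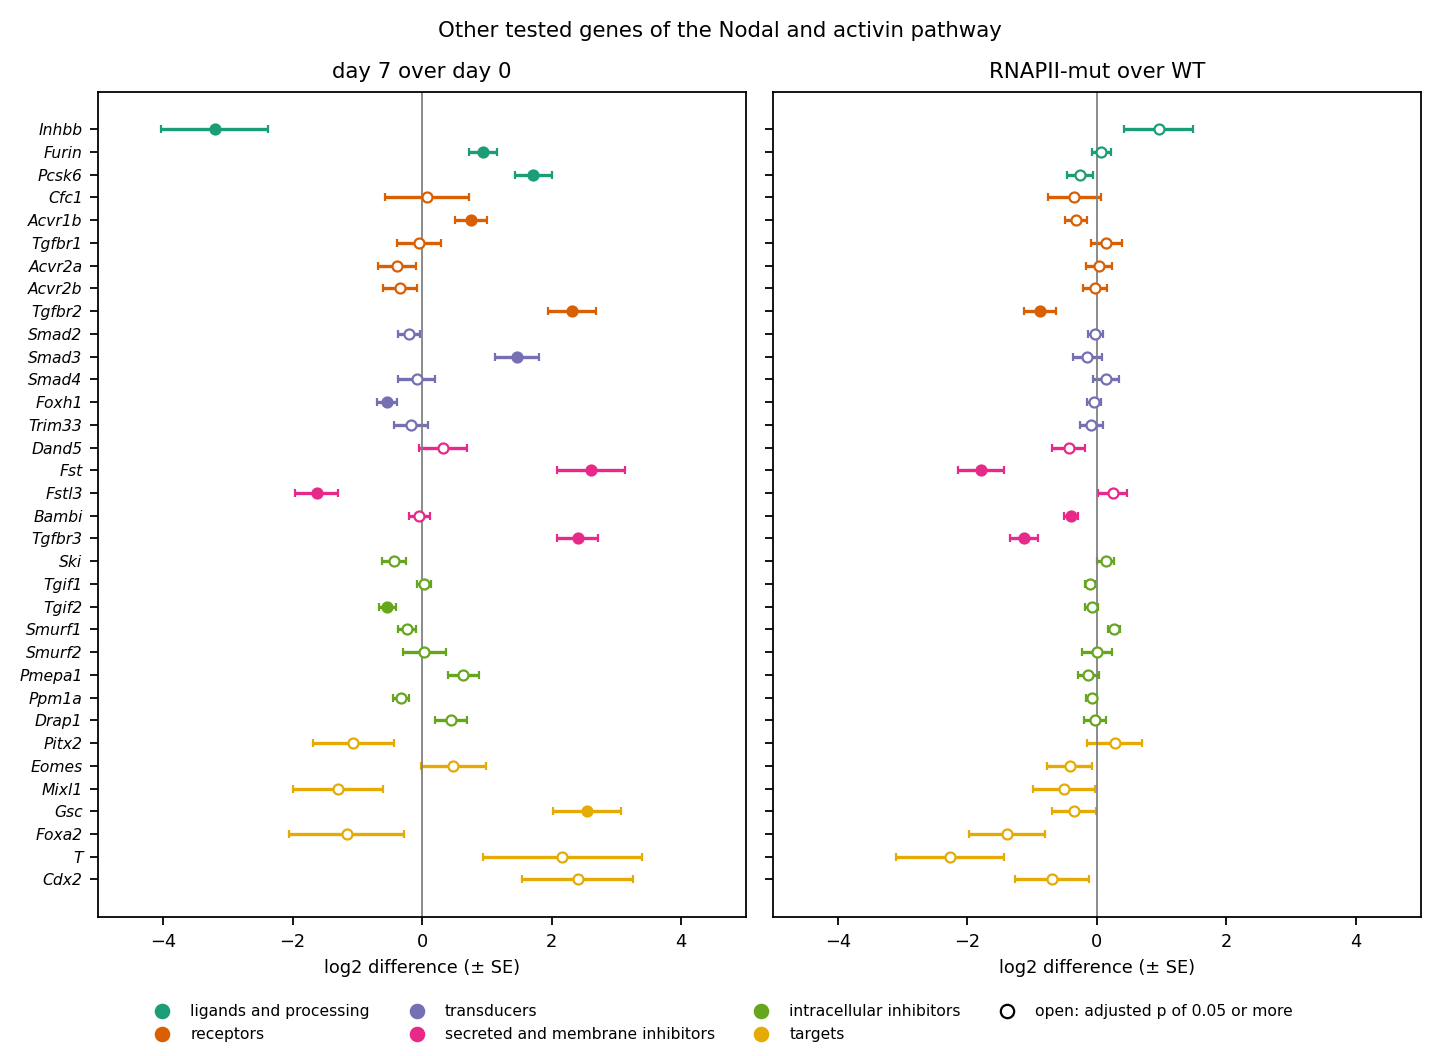
Fitted log2 differences (± SE) of 34 of the 35 other tested pathway genes, coloured by list, for day 7 over day 0 averaged over genotypes and for mutant over WT averaged over days; filled symbols passed the test, and Inhba is left out because its error is wider than the axis. At day 7 the 8 filled symbols right of 0 include Fst, Tgfbr3, Tgfbr2, Gsc, Pcsk6 and Smad3, and between genotypes the 4 filled symbols lie left of 0.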

How the data were processed

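The authors deposited raw read counts per gene, whole numbers in one table for 17 libraries of total RNA. STAR, deepTools and the build mm10 are named in the submitters' processing notes; versions are not given, and the counting tool, annotation, strand setting and treatment of multi-mapping reads are not given in the sources used here. From these counts, edgeR 4.0.16 (R 4.3.3) was run with TMM normalisation and filterByExpr (15365 of 20621 genes kept), as one quasi-likelihood fit with a mean for each of 8 groups, which the titles define by genotype and day. It had 9 residual degrees of freedom and a common biological coefficient of variation of 0.333. There were 19 comparisons, each two-sided with Benjamini-Hochberg adjustment over all tested genes and a threshold of 0.05. Averages weight groups equally. A fold change is from the fit.

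Totals of 47350441 to 56138844 counts put the lowest value of the 7 genes, 3.47 CPM, at well over 100 reads, so the spread between libraries and not counting limits precision. Per-kb values divide by the union of exons (GENCODE M21 on GRCm38). Likeness is Pearson's r of log2 CPM, naming the best of genes averaging at least 5 CPM; some results are not reported here. Pathway genes named are up to 4 called genes in each list. The 7 genes and all lists were chosen with earlier results of these data known. Alternatives were DESeq2 1.42.0, other normalisations and filters, only the compared groups, replicate number as a block over all libraries or in WT alone, and leaving out libraries. Pairing was read from deviations from group means: in WT all 6 pairs of days had r over 0.1, in the mutant 1 of 6 (-0.342 to 0.174), and between genotypes 10 of 16 (-0.348 to 0.503), so the numbers were taken to pair WT libraries only. The procedure was tested on simulated counts for the averaged day 7 over day 0 comparison only. Libraries were simulated as independent, with no WT series, so that test does not cover the WT pairing or the genotype comparisons.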

Additional observations from a re-analysis of the deposited data

How the results depend on the processing

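Other normalisations and filters changed no count of called genes. Fits of the compared groups alone called 2, 2 and 5 of the 7 genes at days 1, 2 and 7 in the mutant (7.54%, 12.3% and 38.8% of all genes) and 0 at day 7 in WT (0.906%). DESeq2 called 4 at day 7 in WT (20.8%), 1 at day 1 (10.8%) and 1 for day 7 over day 2 (5.82%) on average, 3 for mutant over WT on average (18.4%) and 5 other pathway genes at day 1. With replicate number as a block over all libraries, 2 passed at day 7 in WT (15.4%), 1 at day 2 (12.4%) and 1 for day 7 over day 2 (1.60%) on average, and 2 for mutant over WT (13.8%). The replicate block in WT alone gave 3 in the mutant at day 7, 2 and 4 in WT at days 2 and 7, on average 3 at day 1, 3 at day 2, 1 for day 2 over day 1 and 2 for day 7 over day 2, and for mutant over WT 1, 1 and 2 at days 1, 2 and 7 and 4 on average. Without WT replicate 1 of days 0 and 1, 0 passed at day 7 in WT (7.83%), 1 (Smad7) at day 7 on average (24.3%), 1 for day 7 over day 2 (3.47%) and 2 for mutant over WT (12.9%), and 8 and 10 other pathway genes passed at days 1 and 2, against 3 and 5 with all libraries. The cause of these shifts was not tested.

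Leaving out single libraries gave 0 to 1 of the 7 genes at day 7 in the mutant and in WT, 0 to 1 at day 1 and for day 7 over day 2 on average, and 1 to 3 for mutant over WT. At day 7 on average it gave 1 to 4, with 1 left without WT day 0 replicate 1, mutant day 0 replicate 2 or either mutant library of day 7, and 2 without WT day 7 replicate 2. The log2 Lefty2 to Lefty1 ratio over day 0 stayed at 1.29 to 1.66 at day 2 and 3.17 to 3.59 at day 7. None of the 29 differences of the 7 genes with an unadjusted p under 0.05 changed direction under these alternatives.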
